A study of Mus musculus with 3 samples.

Results

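TRBV20, TRBV23, TRBV24 and TRBV30 are 4 variable genes of the mouse T-cell receptor (TCR) beta locus, known by their older family names as Vβ15, Vβ20, Vβ17 and Vβ18. Their clonotypes were taken from TCR libraries of CD4, CD8 and double-negative (DN) T cells, the last of which lack both coreceptors and all of which are called CD4, CD8 and DN cells hereafter. A clonotype here is a distinct nucleotide CDR3 with its best matching V, D and J genes, and it was counted as a member when its best V gene was one of the 4 and its best J gene was a TRBJ gene. This gave 8870 clonotypes with 21624 reads out of 167967 TCR beta clonotypes with 478831 reads. TRBV20 supplied 7249 of them, TRBV30 965, TRBV24 489 and TRBV23 167. All T cells came from the spleen of 1 MRL.lpr mouse aged 16 weeks, so the 3 groups shared the strain, the lpr mutation, the age and the animal. MRL.lpr mice carry a defect of the death receptor Fas on a lupus-prone background and accumulate DN cells. Each library was made from the mRNA of 1000000 sorted cells. The comparisons are therefore between subsets of 1 animal, with no mouse without lpr among them.

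A TCR beta chain is assembled in the thymus by joining 1 V, 1 D and 1 J segment. The V segment supplies the framework and the first and second antigen-contact loops, whereas the third loop, the CDR3, runs from a conserved cysteine near the end of V to a phenylalanine in J. Bases are trimmed and added at the joints, so many rearrangements leave the reading frame or meet a stop codon. A clonotype was called productive when its CDR3 was in frame and free of stop codons. A thymocyte whose first rearrangement fails can rearrange its second allele, and transcripts of failed rearrangements are usually scarce because cells degrade messages with early stop codons. Superantigens and MHC molecules shape which V genes are found on CD4 or CD8 cells of a given strain. Some strains carry a form of Vβ17 that cannot make a working chain, and the form carried by this mouse is not given in the sources used here. In the RefSeq gene list of mouse assembly GRCm38.p6, which was used for names and order only because the files name no build, all 4 genes lie on chromosome 6 among 35 Trbv genes. Trbv20 is number 24 in that order, Trbv23 and Trbv24 are neighbours at 27 and 28, and Trbv30 is number 34.

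The libraries held 133667 TCR beta reads in 44807 clonotypes for CD4, 150874 reads in 81212 clonotypes for CD8 and 194290 reads in 41948 clonotypes for DN cells, so DN cells had the fewest clonotypes at the greatest depth. Each subset had 1 library, no difference had a replicate check, and every test below compares libraries and not conditions. The 95% Wilson intervals cover counting error only, since reads amplified by PCR and carrying no molecular identifiers cannot be counted as molecules. Fewer cells with a V gene and less of its mRNA per cell cannot be told apart in these data. The sort could not be checked against marker genes, since the files hold TCR sequences only. Clonotypes were shared between the libraries. Of the distinct TRBV20 clonotypes 302 were in 2 libraries and 40 in all 3, against 3 and 2 for TRBV23, 17 and 1 for TRBV24, and 40 and 11 for TRBV30. Sharing was not limited to these genes. Of all TCR beta clonotypes of DN cells, 18.5% were found in CD8 and 8.95% in CD4 cells, and of those of CD4 cells 8.70% were found in CD8 cells. Every read ratio was therefore also computed without clonotypes that had at least 10 times the read share in another library, which changed no call for the 4 genes and moved the TRBV20 ratio of DN to CD4 cells from 0.129 to 0.124.

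The CDR3s of each gene shared a common opening, shown here as the reference for the clonotypes printed afterwards. It was built base by base for as long as at least 50% of the clonotypes that still matched carried the same next base. The whole stretch was present in 29.5% of distinct TRBV20, 18.1% of TRBV23, 10.6% of TRBV24 and 23.5% of TRBV30 clonotypes. It was not compared with germline V sequences, so its last bases need not come from V.
TRBV20 start: TGTGGTGCTAGGGA
TRBV23 start: TGCTCCAGCAGTCAATC
TRBV24 start: TGTGCCAGCAGTCTGTAT
TRBV30 start: TGTAGTTCTAGAGA
Productive TRBV20 clonotypes began with cysteine, glycine and alanine in 96.4% of cases in CD4, 96.5% in CD8 and 95.5% in DN cells. TRBV30 clonotypes began with cysteine and a pair of serines in 97.1%, 97.5% and 96.6% of cases. The fourth residue was arginine in most clonotypes of both genes (TRBV20 69.1%, 68.2% and 72.4%, TRBV30 66.2%, 69.1% and 75.4% in CD4, CD8 and DN cells). TRBV23 shared this opening with TRBV30 but used other codons, and TRBV24 opened with cysteine, alanine and serine, as many V genes do.

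Large clonotypes are given next, because the read shares of TRBV23 and TRBV30 in DN cells turned on them and because the TRBV24 ones show its usual frame. Capitals mark the bases from the first one that match the start of the gene, and lower case marks everything after the first mismatch (trimmed or added bases, D and J).
TRBV20 with TRBJ2-7, 405 reads in CD4: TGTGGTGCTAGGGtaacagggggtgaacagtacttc
TRBV20 with TRBJ2-1, 324 reads in DN: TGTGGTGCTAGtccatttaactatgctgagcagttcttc
TRBV20 with TRBJ2-1, 45 reads in CD8: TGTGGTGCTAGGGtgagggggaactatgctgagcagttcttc
TRBV30 with TRBJ2-5, 252 reads in DN: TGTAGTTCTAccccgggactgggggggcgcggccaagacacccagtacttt
TRBV30 with TRBJ2-1, 100 reads in DN: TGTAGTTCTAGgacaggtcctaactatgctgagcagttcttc
TRBV23 with TRBJ2-3, 50 reads in DN: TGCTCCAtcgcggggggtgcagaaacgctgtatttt
TRBV23 with TRBJ2-5, 24 reads in DN: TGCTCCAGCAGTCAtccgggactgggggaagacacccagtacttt
TRBV24 with TRBJ1-2, 23 reads in DN: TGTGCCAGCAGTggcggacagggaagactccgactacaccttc
TRBV24 with TRBJ2-3, 10 reads in CD4: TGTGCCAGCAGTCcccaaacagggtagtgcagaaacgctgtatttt
TRBV24 with TRBJ2-3, 5 reads in DN: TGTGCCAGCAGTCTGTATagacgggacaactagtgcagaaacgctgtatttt
The TRBV24 clonotypes were out of frame and all the others productive.

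TRBV20 was the one of the 4 genes whose use differed most between the subsets. It held 11937 reads in CD4 cells, 8.93% of TCR beta reads (95% interval 8.78 to 9.08%), 3798 reads in CD8 cells, 2.52% (2.44 to 2.60%), and 2235 reads in DN cells, 1.15% (1.10 to 1.20%). By reads it ranked 5 of 26 V genes listed in CD4, 12 of 24 in CD8 and 13 of 29 in DN cells. The share was high in CD4, lower in CD8 and lowest in DN cells, and none of the intervals overlapped. The ratio of DN to CD4 cells was 0.129 (0.123 to 0.135), the lowest among the 25 V genes tested, whose median was 0.804. The ratio was 0.457 (0.434 to 0.481) for DN to CD8 cells and 3.55 (3.42 to 3.68) for CD4 to CD8 cells, where TRBV2 was higher at 4.11 among the 24 V genes with a ratio and TRBV8 had 17 reads in CD4 and 0 in CD8 cells. All 3 ratios passed Fisher's exact test (two-sided) for the reads, adjusted over 25 V genes and 3 pairs of libraries (adjusted exact p = 3.95e-300 for both ratios with CD4 cells, set by a floor of 1e-300 on raw p-values, and 5.99e-201 for DN against CD8 cells). At these depths the same test called 88% of V genes for DN against CD4, 84% for DN against CD8 and 88% for CD4 against CD8 cells, so a call by itself says little beside the size of the ratio. Of the V genes, 60% were lower in DN than in CD4 and 28% higher, 44% were lower in DN than in CD8 and 40% higher, and 52% were higher in CD4 than in CD8 and 36% lower.

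The TRBV20 difference was also seen in the number of clonotypes. TRBV20 made up 4170 clonotypes in CD4 cells, 9.31% of all TCR beta clonotypes (9.04 to 9.58%), 2347 in CD8 cells, 2.89% (2.78 to 3.01%), and 732 in DN cells, 1.75% (1.62 to 1.87%). The order was the same as by reads, with ratios of 0.188 (0.174 to 0.203) for DN to CD4, 0.604 (0.556 to 0.656) for DN to CD8 and 3.22 (3.07 to 3.38) for CD4 to CD8 cells. All 3 passed the same test on clonotypes (adjusted exact p = 1.5e-299, 9.53e-36 and 1.5e-299), which called 60%, 76% and 80% of V genes in those pairs. Counted by direction, 36% were lower and 24% higher in DN than in CD4, 40% lower and 36% higher in DN than in CD8, and 48% higher and 32% lower in CD4 than in CD8. The 10 largest TRBV20 clonotypes held 12.3% of its reads in CD4 and 5.45% in CD8 cells. In DN cells, with fewer clonotypes, they held 31.7%, beside 30.9%, 37.5% and 29.1% for TRBV2, TRBV26 and TRBV29, which had 638, 720 and 979 clonotypes there. Over 7 alternatives, which counted only productive clonotypes, clonotypes with at least 2 reads or clonotypes without the largest one, among others, the ratio of DN to CD4 cells ran from 0.115 to 0.188 and that of DN to CD8 cells from 0.401 to 0.604.

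TRBV30 was less frequent and varied less. Its share of reads was 0.648% in CD4 (866 reads, 0.606 to 0.692%), 0.465% in CD8 (701 reads, 0.432 to 0.50%) and 0.510% in DN cells (990 reads, 0.479 to 0.542%). CD4 cells stood above the others, while the CD8 and DN intervals overlapped. The ratio was 0.786 (0.718 to 0.861, adjusted exact p = 3.92e-07, Fisher's exact test) for DN to CD4 and 1.39 (1.26 to 1.54, adjusted exact p = 8.65e-11) for CD4 to CD8 cells. For DN to CD8 cells it was 1.10 (0.996 to 1.21, adjusted exact p = 0.0692) and the difference did not pass the test. That last ratio moved both ways with the counting. It passed at 1.13 with productive clonotypes only, 1.24 with at least 2 reads per clonotype and 1.11 with only clonotypes that open with the 6 most common bases (adjusted exact p = 0.0220, 0.000518 and 0.0415). Without the largest clonotype of each gene in each library it turned to 0.872 (adjusted exact p = 0.0138). The clonotype left out held 25.5% of TRBV30 reads in DN and 4.99% in CD8 cells. Counted over clonotypes (433 in CD8 and 196 in DN cells) the ratio was 0.876 (0.741 to 1.04, adjusted exact p = 0.156). By clonotypes TRBV30 was also lower in DN than in CD4 cells, where it had 336, with a ratio of 0.623 (0.523 to 0.743, adjusted exact p = 1.74e-07).

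TRBV24 held 0.176% of reads in CD4 cells (235 reads, 0.155 to 0.20%), 0.132% in CD8 (199 reads, 0.115 to 0.152%) and 0.169% in DN cells (329 reads, 0.152 to 0.189%). The CD8 library was the lowest, with ratios of 1.28 for DN to CD8 (1.08 to 1.53, adjusted exact p = 0.00754) and 1.33 for CD4 to CD8 cells (1.10 to 1.61, adjusted exact p = 0.00393). The difference between DN and CD4 cells did not pass (ratio 0.963, 0.815 to 1.14, adjusted exact p = 0.706). By clonotypes, 161 in CD4 cells, 154 in CD8 and 174 in DN cells, the differences with CD8 cells were larger. The DN to CD8 ratio of clonotype shares was 2.19 (1.76 to 2.72, adjusted exact p = 3.92e-12), the highest of the 24 V genes with a value, and that of CD4 to CD8 cells was 1.89 (1.52 to 2.36, adjusted exact p = 3.08e-08). These ratios describe transcripts that were mostly out of frame. Over productive clonotypes alone the read ratio of DN to CD8 cells was 0.784 (adjusted exact p = 0.402), that of CD4 to CD8 cells was 1.53 and no longer passed (adjusted exact p = 0.107), and that of DN to CD4 cells was 0.513 (adjusted exact p = 0.00886). These rested on 40 productive reads in CD4 cells, 30 in CD8 and 30 in DN cells.

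TRBV23 was the rarest of the 4 genes and its shares of reads had overlapping intervals in all 3 libraries. It held 93 reads in CD4 cells (0.0696%, 0.0568 to 0.0852%), 107 in CD8 (0.0709%, 0.0587 to 0.0857%) and 134 in DN cells (0.0690%, 0.0582 to 0.0817%). The ratios were 0.991 (0.761 to 1.29) for DN to CD4, 0.972 (0.754 to 1.25) for DN to CD8 and 0.981 (0.743 to 1.30) for CD4 to CD8 cells, and none passed the test (adjusted exact p = 0.946, 0.881 and 0.946). Its 56 clonotypes in CD4 cells, 76 in CD8 and 35 in DN cells were 0.125%, 0.0936% and 0.0834% of all clonotypes. No ratio of these shares passed either, at 0.668 for DN to CD4, 0.892 for DN to CD8 and 1.34 for CD4 to CD8 cells (adjusted exact p = 0.0799, 0.681 and 0.132). Without the largest clonotype of each gene in each library, the DN share was lower than in CD4 (ratio 0.713, adjusted exact p = 0.0417) and CD8 cells (0.641, adjusted exact p = 0.00339). The clonotype left out held 37.3% of TRBV23 reads in DN, 11.8% in CD4 and 3.74% in CD8 cells. Leaving it out therefore took most from the DN share.

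**Figure D1:**
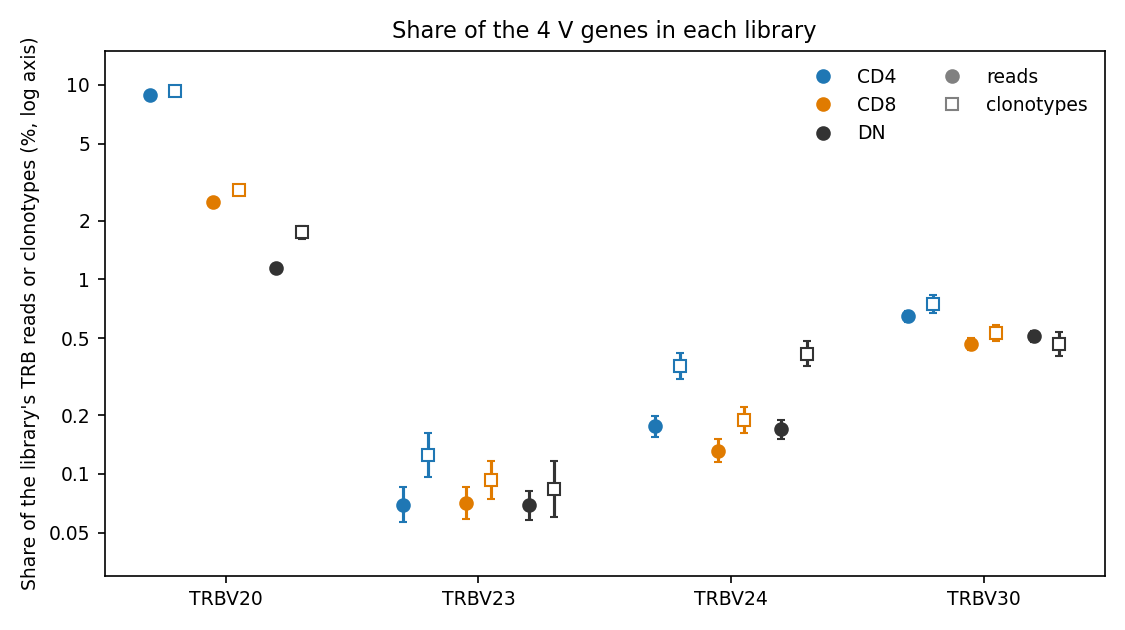
Share of TCR beta reads (filled circles) and clonotypes (open squares) held by each V gene in each library, in percent on a log axis, with 95% Wilson intervals. TRBV20 falls from 8.93% of reads in CD4 to 2.52% in CD8 and 1.15% in DN cells, while the 3 read shares of TRBV23 lie between 0.0690% and 0.0709%.

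The V genes most alike in their pattern over the 3 libraries were found by the distance between centred log2 read shares, among 16 other V genes with at least 100 clonotypes in each library. For TRBV20 they were TRBV26 (distance 1.13, shares of 3.97%, 1.81% and 1.54% in CD4, CD8 and DN cells) and TRBV2 (1.16). Both were also highest in CD4 cells, and TRBV20 had the largest distance to its nearest gene of the 4. TRBV24 and TRBV30 shared the same nearest genes, TRBV13-2 (0.19 and 0.09) and TRBV15 (0.26 and 0.35). TRBV23 was nearest to TRBV31 (0.20) and TRBV19 (0.21). With 3 points per gene these distances are a description.

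The 4 genes also differed in how often their clonotypes were in frame. Productive clonotypes made up 97% of TRBV20 in CD4 (4046 of 4170, 96.5 to 97.5%), 97.8% in CD8 (2296 of 2347, 97.2 to 98.3%) and 94.0% in DN cells (688 of 732, 92.0 to 95.5%). In CD4 and CD8 cells this was the highest of all V genes with at least 20 clonotypes. TRBV24 was at the other end, with 18% in CD4 (29 of 161, 12.8 to 24.7%), 15.6% in CD8 (24 of 154, 10.7 to 22.1%) and 11.5% in DN cells (20 of 174, 7.57 to 17.1%). It was the lowest of those V genes in each of the 3 libraries, but low shares were not limited to it. In CD4, CD8 and DN cells TRBV22 was productive in 27.6%, 19.2% and 24.1% of clonotypes. TRBV15 gave 21%, 38.3% and 19.5%, and TRBV12-1 gave 22.2%, 71.5% and 16.9%. Their 95% intervals overlapped those of TRBV24, except for TRBV15 and TRBV12-1 in CD8 cells. Every TRBV20 and TRBV24 value differed from the other TCR beta clonotypes of its library, of which 91.0% to 95.3% were productive, by a two-sided Fisher's exact test adjusted over all V genes and libraries (adjusted exact p = 5.35e-42, 1.53e-11 and 0.00508 for TRBV20 and 1.28e-115, 9.82e-143 and 1.40e-136 for TRBV24). This test called 84%, 87.5% and 80% of V genes in CD4, CD8 and DN cells, with 40%, 37.5% and 32% higher and 44%, 50% and 48% lower than the rest.

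TRBV23 and TRBV30 lay between these extremes. TRBV23 was productive in 71.4% of clonotypes in CD4 cells (40 of 56), 85.5% in CD8 (65 of 76) and 51.4% in DN cells (18 of 35), lower than the rest each time (adjusted exact p = 6.2e-06, 0.00154 and 2.6e-09, Fisher's exact test). With clonotypes of at least 2 reads only, the CD4 value was 81.2% and no longer passed (adjusted exact p = 0.0568). TRBV30 was productive in 91.7% of clonotypes in CD4 cells, 91.9% in CD8 and 89.3% in DN cells. It was lower than the rest in CD8 cells only (adjusted exact p = 0.00604), and there not when clonotypes of 1 read were left out (94.3%, adjusted exact p = 0.0568).

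**Figure D2:**
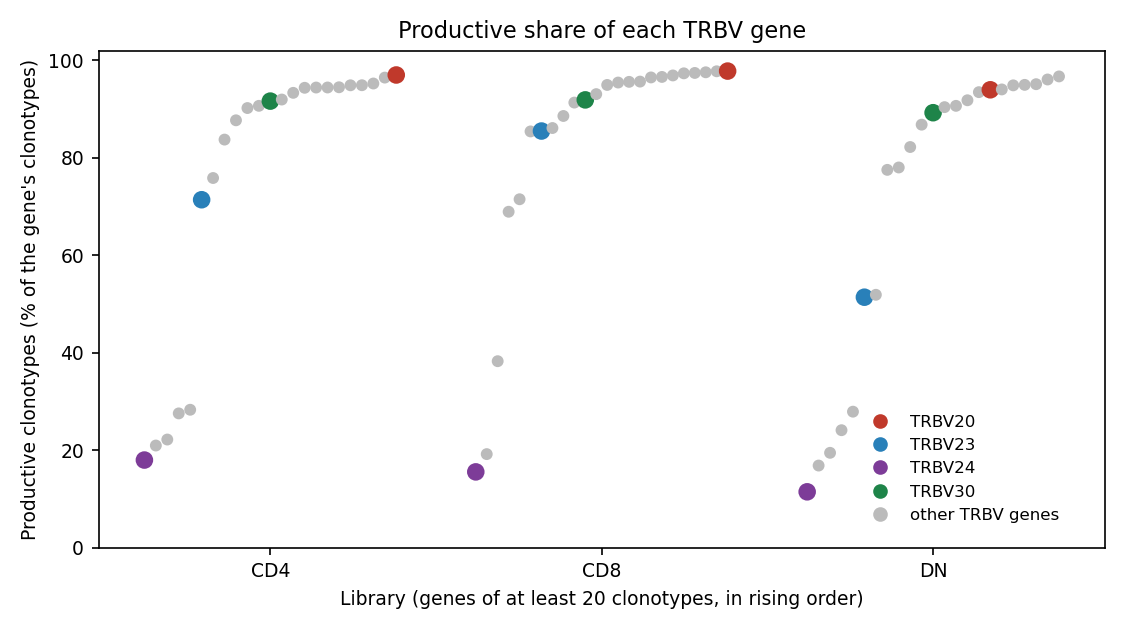
Productive clonotypes as a percentage of all clonotypes of a V gene, for each gene with at least 20 clonotypes, sorted from low to high within each library. TRBV24 is the lowest point in all 3 libraries at 18%, 15.6% and 11.5%, and TRBV20 is the highest in CD4 and CD8 cells at 97% and 97.8%.

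Reads per clonotype followed the frame in TRBV20 and not in TRBV24. A productive TRBV20 clonotype had on average 2.39 times the reads of a nonproductive one in CD4, 1.51 times in CD8 and 2.36 times in DN cells. For TRBV24 the ratios were 0.934, 0.962 and 0.773, so its productive clonotypes were no larger than the others. None of the 10 TRBV24 clonotypes named by the rule used here was productive, in a gene where only 11.5% to 18% of clonotypes were. The rule takes the 3 largest of each library, those found in all libraries and the largest nonproductive one, with ties broken by sequence. In CD8 cells a productive clonotype of 4 reads tied with the third largest and was left out in this way.

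The out-of-frame TRBV24 clonotypes were not spread evenly over the frames that miss. A CDR3 whose length in nucleotides leaves a remainder of 1 or 2 after division by 3 is out of frame between the cysteine and the J segment. TRBV24 had 104 clonotypes with remainder 1 and 23 with remainder 2 in CD4, 108 and 21 in CD8, and 122 and 31 in DN cells. Remainder 1 thus made up 81.9% (74.3 to 87.6%), 83.7% (76.4 to 89.1%) and 79.7% (72.7 to 85.3%) of its out-of-frame clonotypes. Among the other out-of-frame clonotypes of the same libraries it made up 43.4%, 40.5% and 42%. The difference passed a two-sided Fisher's exact test in each library (adjusted exact p = 7.99e-17, 3.03e-21 and 7.27e-19), a comparison that was added after the values had been seen and was run over all V genes. It called 8% of V genes in CD4, 16.7% in CD8 and 12% in DN cells, with 4%, 8.33% and 8% higher and 4%, 8.33% and 4% lower. No other V gene with at least 20 out-of-frame clonotypes exceeded 66.7%, 61.1% or 63.0% in the 3 libraries. Under 5 alternatives, including reads in place of clonotypes and the removal of 1-base copies of productive clonotypes, the TRBV24 values ran from 79.6% to 90.2% and all passed. The removal of 1-base copies, defined below, could take away no TRBV24 clonotype and changed only the other genes.

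The TRBV24 clonotypes of remainder 1 were of usual length and used the whole set of J genes. Over the 3 libraries they numbered 334, used 12 J genes and held 558 of the 763 TRBV24 reads, 73.1%. Their CDR3s had a mean length of 42.3 nucleotides (SD 5.0), close to the 41.4 (SD 5.64) of the 80 in-frame clonotypes of the gene. When read in the frame that ends in J, 328 of the 334 had no stop codon in the CDR3. An open frame was also usual for remainder 1 in other genes. It was seen in 50 of 52 such clonotypes of TRBV20, all 18 of TRBV23, all 51 of TRBV30 and 90.1% outside the 4 genes. Pooled over the 3 libraries, which differ in depth, the TRBV24 clonotypes of remainder 1 had the most reads per clonotype of the gene. The mean was 1.67 against 1.34 for remainder 0 and 1.31 for remainder 2. In DN cells these means were 2.12, 1.48 and 1.26. They lay closer together in CD4 (1.51, 1.32 and 1.43) and CD8 cells (1.31, 1.24 and 1.24), where 75.2% and 81.2% of TRBV24 clonotypes had 1 read. The 3 TRBV24 clonotypes printed above, the largest of DN cells, the largest of CD4 cells and the only one found in all 3 libraries, are of this kind. They are 43, 46 and 52 bases long. A nonproductive clonotype was called a 1-base copy when 1 inserted or deleted base separated it from a productive clonotype with at least 5 times its reads. Both had to have the same V and J genes, and the origin of such clonotypes was not tested. No in-frame TRBV24 clonotype had more than 4 reads in any library. None of the 132, 130 and 154 nonproductive TRBV24 clonotypes of CD4, CD8 and DN cells could therefore qualify, and the search says nothing about 1-base errors in this gene.

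**Figure D3:**
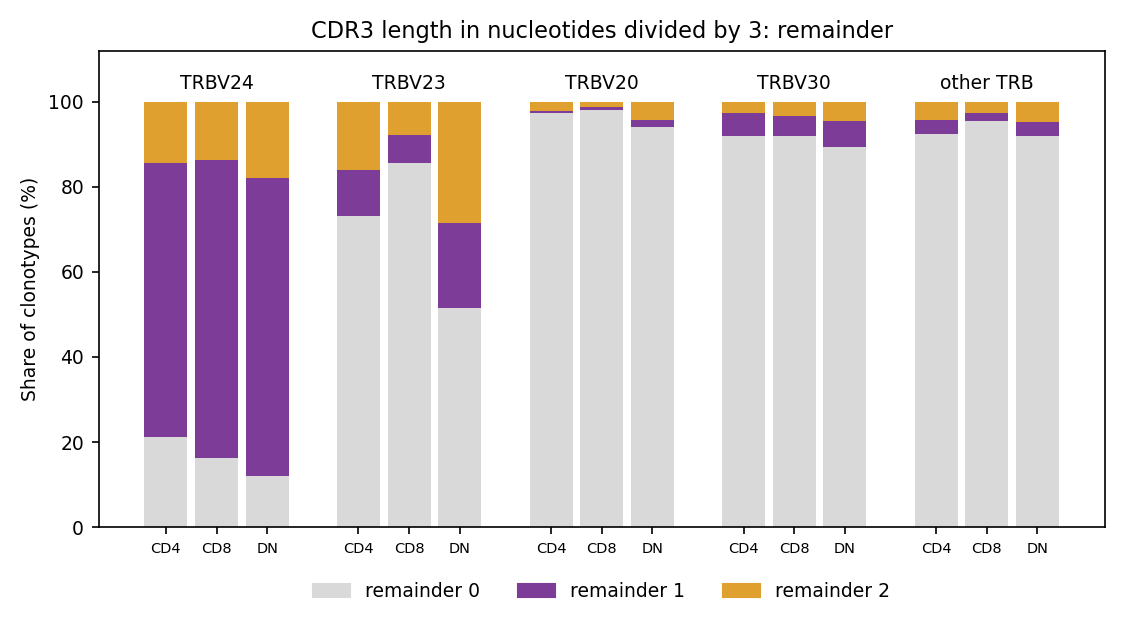
Share of clonotypes, in percent, whose CDR3 length in nucleotides leaves a remainder of 0 (in frame), 1 or 2 after division by 3, for each V gene and library and for all other TCR beta clonotypes. Remainder 1 fills 64.6%, 70.1% and 70.1% of the TRBV24 bars and 3.33%, 1.80% and 3.40% of the bars of the other clonotypes.

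Among the remaining genes no excess of remainder 1 passed the test by clonotypes. TRBV20 had the reverse pattern in CD4 cells, where 22 of 111 out-of-frame clonotypes, 19.8%, had remainder 1 (adjusted exact p = 5.27e-07). Clonotypes that met the definition of a 1-base copy above made up 30 of its 124 nonproductive CD4 clonotypes, 24.2%, against 10.3% over all V genes. In CD8 and DN cells they made up 5.88% and 9.09% of nonproductive TRBV20 clonotypes, against 6.02% and 13.3% over all V genes. Without such clonotypes the remainder 1 share in CD4 cells was 21% (adjusted exact p = 2.34e-05). With at least 2 reads per clonotype it was 18.2% and no longer passed (adjusted exact p = 0.385). In CD8 and DN cells TRBV20 had 37.5% and 27.9% of remainder 1 and passed neither test (adjusted exact p = 0.831 and 0.191). In frame with J, no stop codon was met by 31.3% of the 150 TRBV20 clonotypes of remainder 2 and by none of the 32 of TRBV30, but by 96% of the 75 of TRBV24. In that frame the printed starts of TRBV20 and TRBV30 contain the stop codon TAG and that of TRBV24 contains none. These counts therefore say little beyond the starts themselves. TRBV30 had remainder 1 in 18 of 27, 21 of 35 and 12 of 21 out-of-frame clonotypes and TRBV23 in 6 of 15, 5 of 11 and 7 of 17, and none of these passed the test (adjusted exact p = 0.163, 0.188, 0.606, 0.969, 1 and 1). Counted as reads, remainder 1 made up 77.4% of TRBV30 out of frame in CD4 and 75% in DN cells, which passed (adjusted exact p = 2.22e-05 and 0.000741). All reads of a clonotype share its frame, so this count takes 1 rearrangement many times and is no independent support. The reads of remainder 1 were 41 from 18 clonotypes in CD4 and 36 from 12 in DN cells.

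TRBV20 and TRBV30 differed in their use of the J groups. The mouse locus has a TRBJ1 and a TRBJ2 group of J genes, each behind its own D gene. TRBV20 used TRBJ2 genes in 59.2% of productive clonotypes in CD4 cells (57.7 to 60.7%), 59.9% in CD8 (57.9 to 61.9%) and 63.8% in DN cells (60.1 to 67.3%). The other clonotypes used them in 63.9%, 69.6% and 70.8% of cases, so TRBV20 was lower in every library (adjusted exact p = 2.33e-08, 1.11e-20 and 0.000228, Fisher's exact test over all V genes). TRBV30 was above the rest instead, at 72.1% (66.8 to 76.8%), 75.4% (70.9 to 79.4%) and 79.4% (72.8 to 84.8%) against 63.4%, 69.3% and 70.7% (adjusted exact p = 0.00396, 0.0188 and 0.0202). The same test called 56%, 54.2% and 48% of V genes, with 24%, 29.2% and 24% lower and 32%, 25% and 24% higher than the rest. The TRBV30 calls were lost in every library when clonotypes of 1 read were left out (adjusted exact p = 0.127, 0.285 and 0.685), as was the TRBV20 call in DN cells (adjusted exact p = 0.216).

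Single J genes are given as a description. TRBJ1-2 was used by 8.11%, 10.8% and 6.40% of productive TRBV20 clonotypes in CD4, CD8 and DN cells, and by 5.96%, 4.61% and 3.65% of clonotypes outside the 4 genes. TRBJ1-1 was used by 11.3%, 11.8% and 13.2%, against 9.85%, 8.52% and 8.72%. In TRBV30, TRBJ2-7 was used by 19.8%, 25.4% and 37.7%, against 17.2%, 21% and 23.4% outside the 4 genes, TRBJ2-1 by 14.6%, 19.1% and 20.6% against 12.6%, 13.9% and 16.1%, and TRBJ2-5 by 16.9%, 13.8% and 10.9% against 12.2%, 13.5% and 12%. The gene with the largest excess in TRBV30 was thus TRBJ2-5 in CD4, TRBJ2-1 in CD8 and TRBJ2-7 in DN cells. TRBV23 leaned on TRBJ2-5, with 14 of 40 productive clonotypes in CD4 and 17 of 65 in CD8 but 2 of 18 in DN cells. The TRBJ2 shares of TRBV23 (75%, 76.9% and 83.3%) and TRBV24 (82.8%, 75% and 70.0%) rested on 18 to 65 productive clonotypes each and did not pass the test (lowest adjusted exact p = 0.06).

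CDR3s of TRBV20 and TRBV30 were short in all 3 subsets. The mean over productive TRBV20 clonotypes was 13.2 residues in CD4 (SD 1.28, n = 4046 clonotypes), 12.9 in CD8 (SD 1.39, n = 2296) and 13.1 in DN cells (SD 1.32, n = 688). TRBV30 gave 13.2 (SD 1.29, n = 308), 12.9 (SD 1.49, n = 398) and 13.0 (SD 1.37, n = 175). Clonotypes outside the 4 genes averaged 14.0, 14.0 and 14.2 residues with SDs of 1.49, 1.51 and 1.51. Both genes thus lay about a residue below the rest, less than the spread among clonotypes of a gene, and no test was applied because clonotypes are not replicates. Of DN clonotypes, 31.2% with TRBV20 and 27.4% with TRBV30 had 12 residues or fewer, against 11.8% of the rest. The length of DN cells outside the 4 genes was the greatest of the libraries, which was not seen in TRBV20 or TRBV30. The common start of both genes spans 14 bases, against 17 in TRBV23 and 18 in TRBV24. TRBV23 averaged 14.2, 13.8 and 14.8 residues and TRBV24 14.6, 13.3 and 13.2, each over 18 to 65 clonotypes.

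**Figure D4:**
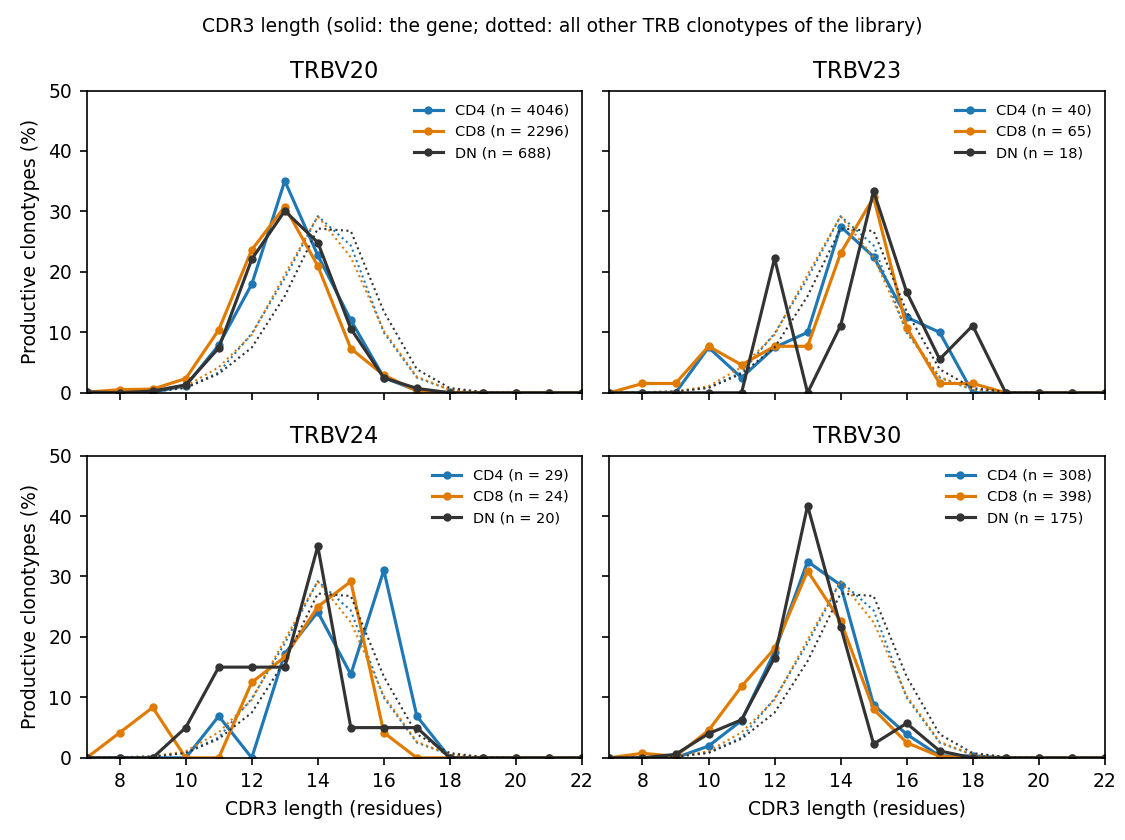
CDR3 length in residues of productive clonotypes of each V gene (solid lines, in percent of that gene's productive clonotypes, with their number in the key) and of all clonotypes outside the 4 genes (dotted lines) in CD4, CD8 and DN cells. The TRBV20 and TRBV30 curves peak at 13 residues in each library, and the dotted curves peak at 14.

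The sixth residue of the CDR3, counted from the cysteine as the first, lies at the tip of the loop that meets the peptide. Bulky hydrophobic residues such as tryptophan at that place have been linked by earlier work to self-reactive receptors, which is background here. Tryptophan stood at position 6 in 41 of 175 productive TRBV30 clonotypes of DN cells, 23.4% (17.8 to 30.2%). It did so in 11 of 308 in CD4, 3.57% (2.01 to 6.28%), and in 19 of 398 in CD8 cells, 4.77% (3.08 to 7.34%). TRBV20 was likewise highest in DN cells, with smaller differences, at 88 of 688 in DN cells, 12.8% (10.5 to 15.5%), 219 of 4046 in CD4, 5.41% (4.76 to 6.15%), and 106 of 2296 in CD8 cells, 4.62% (3.83 to 5.55%). For both genes DN cells stood clear of the other subsets, whose intervals overlapped.

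The differences for DN cells passed Fisher's exact test (two-sided) for the clonotypes, run over all V genes and pairs of libraries after the values had been seen. They were 19.9 percentage points over CD4 and 18.7 over CD8 cells for TRBV30 (adjusted exact p = 2.7e-10 and 1.29e-09) and 7.38 and 8.17 points for TRBV20 (adjusted exact p = 2.63e-10 and 1.12e-11). The difference between CD4 and CD8 cells passed for neither gene (adjusted exact p = 0.309 for TRBV20 and 0.684 for TRBV30). The test called 56% of V genes for DN against CD4, 54.2% for DN against CD8 and 20.8% for CD4 against CD8 cells. DN cells were higher in 56% and 50% of V genes and lower in 0% and 4.17%, CD4 cells were higher than CD8 cells in 0% and lower in 20.8%, and clonotypes outside the 4 genes had 3.16%, 4.29% and 6.95% in CD4, CD8 and DN cells. More tryptophan in DN cells was thus common to many V genes, and whether TRBV30 exceeded them was not tested. With clonotypes of at least 2 reads only, the shares in DN cells were 25.7% (18 of 70) for TRBV30 and 16.2% (43 of 266) for TRBV20, and both differences still passed. TRBV23 had no such clonotype in DN cells and TRBV24 had 3 of 20, each of 1 read.

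Most of these clonotypes were assigned the second D gene. Of the 41 TRBV30 clonotypes in DN cells, 34 were assigned TRBD2, 3 TRBD1 and 4 no D gene, and 22 used TRBJ2-7. Of the 88 TRBV20 clonotypes, 65 were assigned TRBD2. This was not particular to these genes or to DN cells. Outside the 4 genes, 1844 of the 2590 DN clonotypes with tryptophan at position 6 were assigned TRBD2, and 684 used TRBJ2-7. In CD4 cells 175 of the 219 TRBV20 ones were assigned TRBD2. TRBD2 was also assigned to more productive TRBV30 clonotypes in DN cells (35.4%) than in CD4 (25.3%) or CD8 cells (26.1%). Outside the 4 genes it was 39.9% in DN, 29.7% in CD4 and 32.4% in CD8 cells, and its part in the result was not tested. The 3 largest in DN cells for each gene are shown with codon 6, bases 16 to 18, in capitals. All were chosen for tryptophan at that place, so the TGG they share was fixed by the choice.
TRBV30 with TRBJ2-7, 43 reads in DN: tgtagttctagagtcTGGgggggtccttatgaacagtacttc
TRBV30 with TRBJ2-7, 24 reads in DN: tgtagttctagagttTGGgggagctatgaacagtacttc
TRBV30 with TRBJ2-5, 20 reads in DN: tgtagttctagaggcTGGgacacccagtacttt
TRBV20 with TRBJ2-1, 14 reads in DN: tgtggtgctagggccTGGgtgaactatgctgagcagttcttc
TRBV20 with TRBJ2-1, 10 reads in DN: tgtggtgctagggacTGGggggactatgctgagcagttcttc
TRBV20 with TRBJ2-1, 7 reads in DN: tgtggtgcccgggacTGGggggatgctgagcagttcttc
The last pair of TRBV20 clonotypes differed by 1 tyrosine codon and encoded the same residues otherwise.

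Single large clonotypes set the read share of TRBV23 and TRBV30 in DN cells. The TRBV30 clonotype joined to TRBJ2-5 had 252 reads in DN, 35 in CD8 and 8 in CD4 cells, and made up 25.5% of TRBV30 reads in DN cells. The one joined to TRBJ2-1 followed with 100, 9 and 2 reads. Together the 10 largest TRBV30 clonotypes held 61.2% of its DN reads, against 26.2% in CD4 and 15.8% in CD8 cells. Other small V genes ranged widely in DN cells. The 10 largest held 59.7% of reads for TRBV15 and 37.6% for TRBV16, which had 159 and 156 clonotypes there. For TRBV12-2 and TRBV12-1, with 68 and 77 clonotypes, they held 58.6% and 48.4%. TRBV23 was more extreme than TRBV30. Its TRBJ2-3 clonotype had 50 of the 134 TRBV23 reads in DN cells (37.3%), 4 of 107 in CD8 and 2 of 93 in CD4 cells. Its TRBJ2-5 clonotype added 24 reads in DN, 1 in CD8 and 2 in CD4 cells. Both clonotypes were in all 3 libraries. In TRBV24 no clonotype exceeded 23 reads.

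The largest TRBV20 clonotypes differed between the subsets. A clonotype with TRBJ2-7 led in CD4 cells with 405 reads, rank 4 of all TCR beta clonotypes there, and had 3 reads in CD8 and 2 in DN cells. A clonotype with TRBJ1-2 had 157 reads in CD4 cells, 5 in CD8 and 2 in DN cells. In DN cells the largest was joined to TRBJ2-1 and had 324 reads, 14.5% of the TRBV20 reads of that library, and it had 46 reads in CD8 and 3 in CD4 cells. It was also the largest TRBV20 clonotype of CD8 cells. The next, also with TRBJ2-1 and with 45 reads in CD8 cells, had 1 read in CD4 and none in DN cells, where 0 reads allow a share of up to 0.00154%.

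Clonotypes with at least 20 reads in DN cells were looked up in the other libraries. Since they were chosen by their DN reads, the counts describe where they were found and not a difference in size. Of 14 such TRBV20 clonotypes 13 were found in CD8 and 11 in CD4 cells, and of 9 such TRBV30 clonotypes 9 and 5 were. The 2 large TRBV23 clonotypes were in both other libraries, and the TRBV24 one in CD8 cells only. Of the 73 TRBV20 clonotypes with at least 20 reads in CD4 cells, 25 were found in CD8 and 22 in DN cells. Those with at least 100 reads in CD4 and 20 in DN cells were a clonotype with TRBJ2-3 (121 reads in CD4 cells, 6 in CD8 and 35 in DN cells) and one with TRBJ2-1 (110, 7 and 30 reads), named after their values were seen, whose share in CD4 cells was 5.03 and 5.33 times that in DN cells.

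**Figure D5:**
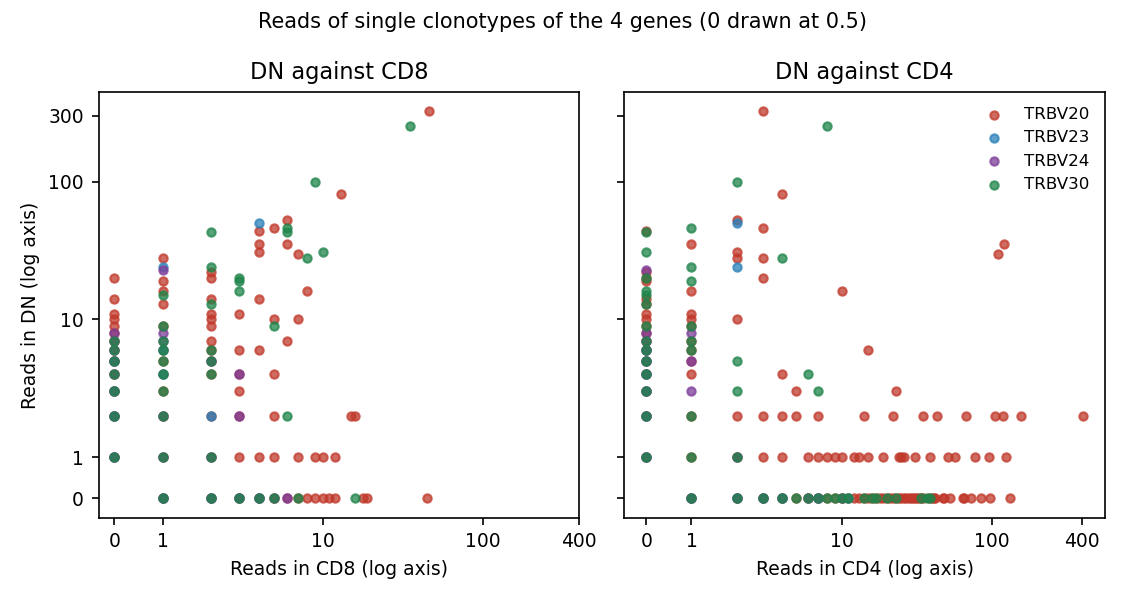
Reads of each clonotype of the 4 V genes in DN cells against its reads in CD8 (left) and CD4 cells (right), on log axes with 0 drawn at 0.5; a point can stand for several clonotypes. The 2 largest DN clonotypes, with 324 reads (TRBV20) and 252 reads (TRBV30), lie at 46 and 35 reads in CD8 and at 3 and 8 reads in CD4 cells.

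Over all sizes, 121 of 732 TRBV20 clonotypes of DN cells were found in CD8 cells, 16.5% (14.0 to 19.4%), and 109 in CD4 cells, 14.9% (12.5 to 17.7%). TRBV30 gave 18.9% (14.0 to 24.9%) and 9.18% (5.89 to 14.0%), TRBV24 8.62% (5.29 to 13.7%) and 2.30% (0.898 to 5.76%), and TRBV23 14.3% (6.26 to 29.4%) and 5.71% (1.58 to 18.6%). Clonotypes outside the 4 genes gave 18.6% (18.2 to 19.0%) and 8.87% (8.60 to 9.15%). The TRBV20 share found in CD4 cells lay above that of the rest with no overlap of the intervals, beside the 4170 TRBV20 clonotypes that the CD4 library offered for a match. The clonotypes found in CD8 cells held 54.1% of the DN reads of TRBV20, 64.2% of those of TRBV23, 20.7% of those of TRBV24 and 75.2% of those of TRBV30, against 66.7% outside the 4 genes. No test was applied to these shares.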

How the data were processed

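The authors sorted CD4, CD8 and DN T cells from 1 spleen, extracted RNA, made libraries with the Takara SMARTer Mouse TCRα/β kit and aligned, assembled and exported clonotypes with MiXCR, whose version, settings, gene library and genome build are not given in the sources used here. The deposited tables give each clonotype a count of reads, not normalized, and its fraction of the library, which equalled the count divided by the table total when checked. All clonotypes with TRBV and TRBJ genes were used, with no filter on reads or frame, which gave 133667, 150874 and 194290 reads. A count of 0 allows a share of up to 3 reads, which is 0.00224% of the CD4, 0.00199% of the CD8 and 0.00154% of the DN library.

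The 95% intervals of shares are Wilson intervals and those of ratios were computed on the log scale. Two-sided Fisher's exact tests were run on V genes with at least 10 reads (25 genes, 75 tests for ratios of reads or clonotypes, 74 each for the productive, TRBJ2 and frame comparisons, 73 for tryptophan), and p-values were adjusted by Benjamini-Hochberg within each family, with a threshold of 0.05. The frame and tryptophan comparisons were added after seeing the data. Named were the 4 genes, for each the 2 nearest other V genes by read share pattern, the 3 clonotypes with the most reads per gene and library, the 3 with the most reads among those in all libraries, and the largest nonproductive one. The genes, lists and comparisons were chosen with earlier results of these data known. The scripts were tested on simulated data. Computations used pandas 2.3.3, SciPy 1.17.1 and NumPy 2.4.6 under Python 3.11.15, with matplotlib 3.10.9 for figures. Flow cytometry and TREC data of the study were not analysed here.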

Additional observations from a re-analysis of the deposited data

How the results depend on the processing

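Of 340 alternative values, 279 kept the direction and the side of the threshold or stayed within the counting error, 19 turned, 12 newly passed the test, 9 no longer passed and 21 means or shares without a test moved by more than their counting error. The cause was not tested for any of them. Every alternative kept TRBV20 lower in DN than in CD4 and CD8 cells and TRBV24 rich in remainder 1 and poor in productive clonotypes. No paired analysis was possible because each subset had 1 library, and leaving out a library would leave no comparison. TRBV23 and TRBV24 rested on 93 to 329 reads per library, which limits how small a difference could be seen. The frame and tryptophan alternatives, and the removal of 1-base copies, were chosen after seeing the data.

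With productive clonotypes only, the read ratio of TRBV23 for DN to CD4 turned to 1.01, that of TRBV24 for DN to CD8 turned to 0.784, that of TRBV24 for DN to CD4 newly passed at 0.513, that for CD4 to CD8 no longer passed at 1.53, and that of TRBV30 for DN to CD8 newly passed at 1.13. With at least 2 reads per clonotype, TRBV23 turned to 1.37 for DN to CD4 and 1.21 for DN to CD8, TRBV24 turned to 1.16 for DN to CD4, and TRBV30 newly passed at 1.24 for DN to CD8. Without the largest clonotype of each gene in each library, TRBV23 newly passed at 0.713 and 0.641 for DN to CD4 and to CD8. TRBV30 then turned to 0.872 for DN to CD8. Counted as clonotypes, TRBV23 turned to 1.34 for CD4 to CD8, TRBV24 to 1.15 for DN to CD4 and TRBV30 to 0.876 for DN to CD8. With only clonotypes that open with the 6 most common bases of the gene, TRBV30 newly passed at 1.11 for DN to CD8.

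With at least 2 reads, the productive share no longer passed for TRBV23 in CD4 (81.2%) and TRBV30 in CD8 cells (94.3%). The remainder 1 share of TRBV20 no longer passed in CD4 (18.2%) and turned in CD8 cells (50%), and that of TRBV23 turned in CD8 (25%) and DN cells (57.1%). Counted as reads, which share the frame of their clonotype, it turned for TRBV23 in CD8 cells (40%). By that count it also newly passed for TRBV20 in DN (25.9%) and TRBV30 in CD4 (77.4%) and DN cells (75%). With the 6 most common first bases it turned for TRBV23 in DN cells (46.7%). The tryptophan difference of TRBV24 between DN and either other subset was 0 with at least 2 reads.

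The TRBJ2 share no longer passed with at least 2 reads for TRBV20 in DN cells (67.3%) and for TRBV30 in CD4 (72.7%), CD8 (77.6%) and DN cells (75.7%), nor by reads for TRBV30 in CD4 cells (70.1%). By reads, which share their clonotype's J gene, it newly passed for TRBV23 in CD4 (80.6%) and DN (95.3%) and TRBV24 in CD4 cells (85%). TRBV24 turned in CD8 cells over all frames (64.9%) and in DN cells with at least 2 reads (85.7%) and by reads (76.7%).

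Mean CDR3 lengths moved with at least 2 reads to 13.1 residues in CD4 and 12.7 in CD8 cells for TRBV20, to 13.5, 13.3 and 13.7 in CD4, CD8 and DN cells for TRBV23, to 13.1 and 12.3 in CD4 and CD8 cells for TRBV24, and to 13.1 in CD8 cells for TRBV30. Weighted by reads they moved to 13.1 in CD4 and 12.8 in CD8 cells for TRBV20, 13.4 in DN cells for TRBV23, and 13.2 in CD8 and 14.3 in DN cells for TRBV30, whose largest DN clonotype has 17 residues. The share of DN clonotypes found in CD8 cells moved to 22.6% for TRBV20, 29.4% for TRBV23 and 5.0% for TRBV24 when amino acid CDR3s were matched, and to 5.17% for TRBV24 with at least 2 reads. The share found in CD4 cells moved to 21.5% for TRBV20 by amino acids and 12.1% with at least 2 reads, and to 0% for TRBV24 under both.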

Other observations

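Several nucleotide sequences coded for the same CDR3 in 9.17% of the 5922 distinct productive amino acid CDR3s of TRBV20, in 3.57% for TRBV23, 1.41% for TRBV24 and 3.02% for TRBV30, against 8.63% outside the 4 genes. The largest number was 7 sequences for 1 CDR3 of TRBV20 joined to TRBJ1-1. No test was applied to these shares.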
